A study of Mus musculus with 7 samples.

Results

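The activated and lipid-associated microglia genes are 10 genes that brain macrophages raise when they take up lipid, myelin or dying cells: Trem2, Tyrobp, Itgax, Apoe, Lpl, Cd68, Gpnmb, Cst7, Spp1 and Lgals3. They were taken by symbol from the normalized counts of 19257 genes, where all 10 were present, and all 10 also passed the filter that left 14782 genes for testing. They were compared between 3xCR tumors (n = 3, numbered 2 to 4) and GPC6 tumors (n = 4, numbered 1 to 4), with 1 RNA-Seq library per brain. Both groups were mouse gliomas started by in utero electroporation of Cas9 with guides that target tumor suppressors, including Trp53 and Nf1, into progenitors that line the lateral ventricles, and the genotype label of the 3xCR tumors is control. The GPC6 group also received a piggyBac transposon that overexpresses GPC6, a heparan sulfate proteoglycan anchored to the cell surface. Electroporated cells were labelled with a GFP reporter. Microglia do not descend from these progenitors, so the constructs were carried by the tumor cells and other progeny of the electroporated cells and not by the microglia. The study used males and females of CD-1 and C57BL/6 background, and the sex, background and age of the animal behind each library are not given in the sources used here. The tissue was collected at the endpoint of the disease under a fluorescence microscope.

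TREM2 is a lipid-sensing receptor of microglia and other macrophages that signals through its adaptor TYROBP, also called DAP12, which recruits the kinase SYK. In diseased or demyelinated brain, microglia can lower their homeostatic genes and raise a program of lipid uptake, lysosomal degradation and secreted factors. These 10 genes belong to that program, and part of the change, but not all of it, depends on TREM2. Microglia are not the only source of every one of them: Apoe is made in quantity by astrocytes, and Spp1, Gpnmb and Lgals3 can also be expressed by glioma cells. Since bulk libraries mix the RNA of every cell type present, for each gene below fewer cells that express it and less of its RNA per cell cannot be told apart.

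Among the 10 genes, 4 are shown with the 250 bases before a transcript start, taken from RefSeq on GRCm38.p6, because they stand for the patterns described below: Trem2 and Cst7, whose groups did not overlap, Cd68, which followed the other myeloid genes, and Gpnmb, which followed none of them closely. RefSeq windows were matched by symbol for 8 of the 10 genes. Capitals mark a match, on either strand, to AGGAAGT, a core of the sites bound by PU.1, the lineage factor of macrophages, or to TGAGTCA, a site of the AP-1 factors. The windows are chr17:48346151-48346400 (plus strand) for Trem2, chr2:150570165-150570414 (plus strand) for Cst7, chr11:69666171-69666420 (minus strand) for Cd68 and chr6:49036268-49036517 (plus strand) for Gpnmb.
Trem2: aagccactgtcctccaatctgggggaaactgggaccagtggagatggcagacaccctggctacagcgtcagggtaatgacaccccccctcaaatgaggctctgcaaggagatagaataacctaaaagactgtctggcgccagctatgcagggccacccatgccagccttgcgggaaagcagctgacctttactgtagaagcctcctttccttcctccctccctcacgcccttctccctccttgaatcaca
Cst7: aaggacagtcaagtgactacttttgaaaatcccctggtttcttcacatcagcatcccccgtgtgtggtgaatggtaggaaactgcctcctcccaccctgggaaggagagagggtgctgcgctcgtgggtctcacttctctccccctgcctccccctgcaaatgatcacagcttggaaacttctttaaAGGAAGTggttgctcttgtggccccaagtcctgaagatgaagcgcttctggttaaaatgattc
Cd68: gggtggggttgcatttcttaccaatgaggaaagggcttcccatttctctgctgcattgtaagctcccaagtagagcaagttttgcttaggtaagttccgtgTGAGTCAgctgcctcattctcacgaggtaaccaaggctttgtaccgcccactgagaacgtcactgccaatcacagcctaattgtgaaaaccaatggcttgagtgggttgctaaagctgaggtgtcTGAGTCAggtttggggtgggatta
Gpnmb: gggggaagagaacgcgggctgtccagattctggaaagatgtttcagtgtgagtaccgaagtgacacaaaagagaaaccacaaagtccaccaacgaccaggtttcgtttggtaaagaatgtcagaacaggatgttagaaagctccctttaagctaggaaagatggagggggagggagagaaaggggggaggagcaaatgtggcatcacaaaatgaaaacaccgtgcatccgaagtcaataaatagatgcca
AGGAAGT was found in 2 of the 8 genes, Cst7 and Spp1, and in 7.69% of all 32851 windows of this length. A gene counts here when at least 1 of its windows matches, and Apoe and Spp1 have more than 1, whereas the shares are taken per window. TGAGTCA was found in Cd68, with 2 matches in its window, and in Itgax, against 4.46% of all windows. CACGTG and CATGTG, letters that factors of the MITF and TFEB family can bind, were found in 0 of the 8 genes, against 6.02% and 12.3% of all windows. None of the 4 motifs contains another, their letters were settled after these windows had been viewed, and a match is a description of the letters only.

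The libraries held 7197692 to 18879762 reads on genes. The least abundant reading of any of the 10 genes was Cst7 in GPC6 replicate 1, with 27 reads, and a count of 0 would have allowed up to 4.64 normalized counts in that library, the smallest. Normalized counts below are the deposited values, scaled for depth by library but not for gene length. In the check of the labels, Gpc6 had 217, 226 and 126 normalized counts in the 3xCR tumors and 675, 263, 3434 and 5084 in GPC6 replicates 1 to 4, so that replicate 2 of the GPC6 group was above each 3xCR tumor but near their level. Markers of astrocytes, oligodendrocyte precursors, oligodendrocytes and neurons were above 0 in all 7 libraries, for which the labels give brain as the tissue. GPC6 replicate 1 stood apart in its cell type markers. Its score was 2.51 for neuron genes and -3.11 for proliferation genes, where a score is the mean of the list's log2 values after each gene was centered on its mean over the 7 libraries. Other libraries also had scores far from the mean, with -1.81 for neuron and 2.00 for T cell genes in 3xCR replicate 4. GPC6 replicate 4 had -2.05 for oligodendrocyte genes. Values without GPC6 replicate 1, or without GPC6 replicates 1 and 2, are given beside the results that moved most.

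Of the 10 genes, 9 had a lower mean log2 level in the GPC6 tumors and Lpl alone had a higher one. The median log2 fold change of the 10 genes (GPC6 over 3xCR) was -1.03, beside -0.02 over all 14782 genes tested, of which 51.7% had a lower mean. In 4 genes, Trem2, Tyrobp, Itgax and Cst7, each GPC6 tumor lay below each 3xCR tumor, and 3.52% of all genes tested had groups separated in this direction. None of the 10 genes passed the test across all genes (limma, Benjamini-Hochberg adjusted p of 0.730 to 0.849), and neither did any other gene, since 0 of 14782 had an adjusted p under 0.05 (0%) and the smallest was 0.730. At an unadjusted p under 0.05, limma called 689 genes in either direction (4.66%) and 284 lower in GPC6 (1.92%), and 2 of the 10 genes, Trem2 and Tyrobp, were among them. Other tools run on the recovered reads gave 0 genes at the adjusted threshold and 991 unadjusted for edgeR, 4 and 1853 for DESeq2, and 0 and 499 for limma voom, with the same number of 2 among the 10 genes in each. Without GPC6 replicate 1 the median of the 10 genes was -0.54, and without GPC6 replicates 1 and 2 it was -0.64.

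**Figure D1:**
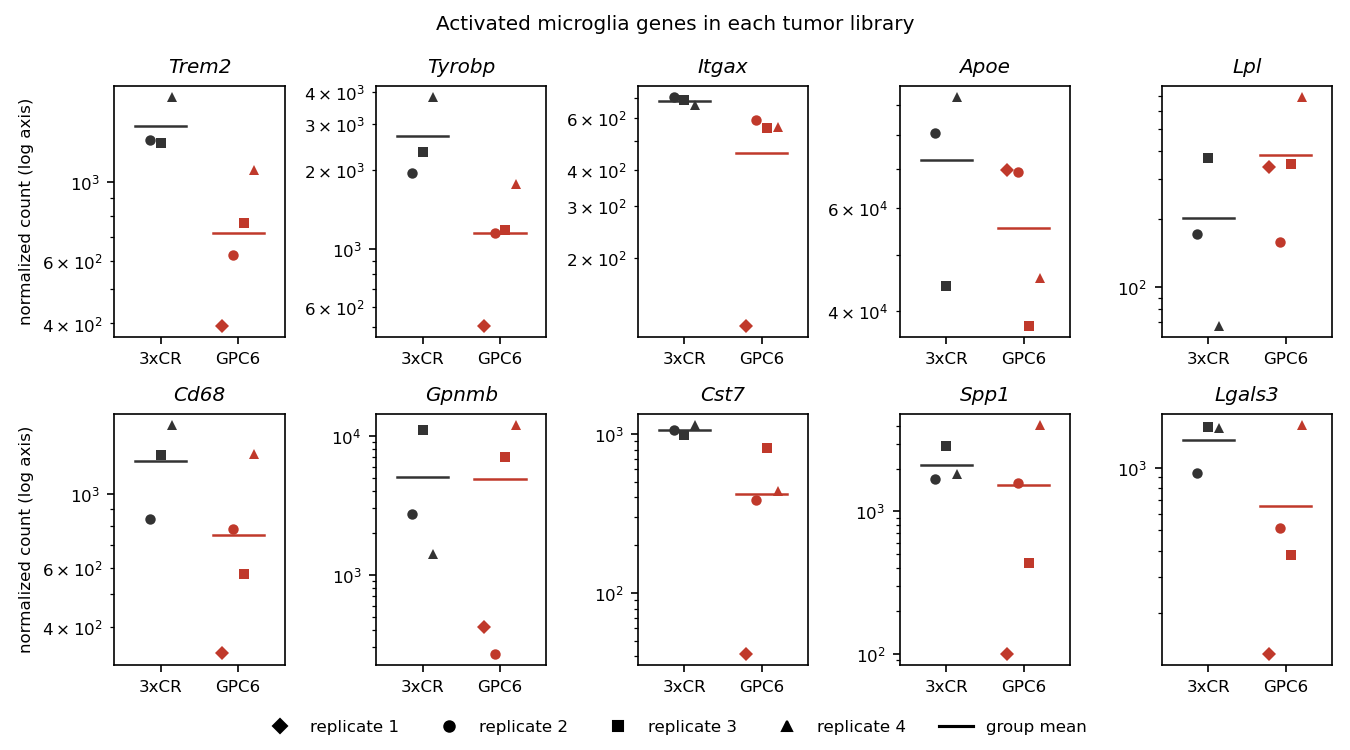
Normalized count of each gene (log axis, a range of its own for each gene) in the 3 3xCR tumors (black) and the 4 GPC6 tumors (red), with the shape of a point giving the replicate number and a line the group mean. The groups are separated for Trem2, Tyrobp, Itgax and Cst7, and GPC6 replicate 1 (diamond) is the lowest library for 7 of the 10 genes.

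Trem2, the receptor itself, had 1305, 1279 and 1722 normalized counts in the 3xCR tumors (replicates 2, 3 and 4, in this order throughout) and 394, 621, 767 and 1080.3 in the GPC6 tumors (replicates 1 to 4). Its highest GPC6 tumor, replicate 4, stayed below its lowest 3xCR tumor, and the 3xCR tumors spanned a 1.35-fold range against 2.74-fold among the GPC6 tumors. The means were 1435 ± 249 (SD, n = 3) and 716 ± 287 (SD, n = 4), a log2 fold change of -1.08 with a standard error of 0.34 (limma, unadjusted p = 0.014, adjusted p = 0.730). It ranked 79 by p among the 14782 genes. The exact permutation test of the 2 groups gave p = 0.057, the smallest value that 3 against 4 libraries allow in a two-sided test.

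Tyrobp, the transmembrane adaptor that carries the TREM2 signal and that of several other myeloid receptors, had 1949, 2355 and 3807 normalized counts in the 3xCR tumors and 507, 1154, 1177 and 1779 in the GPC6 tumors. As for Trem2, the groups were separated and replicate 4 was the highest library of both groups, with replicate 1 the lowest of the GPC6 group. The means were 2704 ± 977 (SD, n = 3) and 1154 ± 519 (SD, n = 4), with a log2 fold change of -1.30 ± 0.44 (SE, limma, unadjusted p = 0.018, adjusted p = 0.730). Trem2 and Tyrobp kept a negative fold change when any 1 library was left out, from -1.31 to -0.83 for Trem2 and from -1.55 to -0.95 for Tyrobp. Without GPC6 replicates 1 and 2 they had -0.64 and -0.84. Without 3xCR replicate 4, which held the highest level of both, their unadjusted limma p were 0.053 and 0.074.

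Itgax encodes CD11c, an integrin subunit that marks dendritic cells and a subset of activated microglia. It was nearly constant in 6 of the 7 libraries, with 706, 691 and 667 normalized counts in the 3xCR tumors and 592, 556 and 562 in GPC6 replicates 2, 3 and 4. GPC6 replicate 1 was far below the rest at 117. The groups were separated, yet the difference of the means of 688 ± 19.6 (SD, n = 3) and 457 ± 227 (SD, n = 4) rested on that library: the log2 fold change was -0.84 ± 0.56 (SE, limma, unadjusted p = 0.175) with it and -0.27 without it.

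The lipid-handling genes did not share the pattern of the receptors. Apoe, the main lipoprotein of the brain and a ligand of TREM2, was the most abundant of the 10 genes, at 80645.5, 44213 and 92766 normalized counts in the 3xCR tumors and 69770.5, 69045, 37786 and 45531 in the GPC6 tumors. The groups overlapped, and with 1.85-fold its range within the GPC6 group was the smallest of the 10 genes there. GPC6 replicate 1, which had the lowest Trem2 and Tyrobp, had the highest Apoe of its group. The means of 72542 ± 25270.5 (SD, n = 3) and 55533 ± 16333 (SD, n = 4) gave a log2 fold change of -0.37 ± 0.48 (SE, limma, unadjusted p = 0.467).

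Lpl encodes lipoprotein lipase, which releases fatty acids from triglyceride-rich lipoproteins. It was the gene with the higher mean in GPC6 tumors, with 171, 370.2 and 67.7 normalized counts in the 3xCR tumors and 340.0, 159, 349.5 and 688 in the GPC6 tumors. The groups overlapped in both directions, since 3xCR replicate 3 exceeded 3 of the 4 GPC6 tumors and GPC6 replicate 2 lay below 2 of the 3 3xCR tumors. The means were 203 ± 154 (SD, n = 3) and 384 ± 221 (SD, n = 4), with a log2 fold change of 1.05 ± 0.65 (SE, limma, unadjusted p = 0.146). Without 3xCR replicate 4, the lowest library, the log2 fold change was 0.42, and without 3xCR replicate 3, the highest of its group, it was 1.64 (limma, unadjusted p = 0.038).

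Among the lysosome and phagosome genes, Cd68, a glycoprotein of macrophage lysosomes, had 841, 1304 and 1604 normalized counts in the 3xCR tumors and 332, 784, 576 and 1316 in the GPC6 tumors. Only GPC6 replicate 4 reached into the 3xCR range, where it exceeded 2 of the 3 tumors. The means were 1249.7 ± 384 (SD, n = 3) and 752 ± 419 (SD, n = 4), a log2 fold change of -0.86 ± 0.46 (SE, limma, unadjusted p = 0.102) that was -0.52 without GPC6 replicate 1.

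Cst7 encodes cystatin F, an inhibitor of lysosomal cathepsins that is hardly expressed by resting microglia. It was even across the 3xCR tumors, at 1058, 992 and 1138 normalized counts, and varied 19.6-fold across the GPC6 tumors, at 41.7, 385, 817 and 440.3. All 4 GPC6 tumors lay below the 3xCR tumors. The log2 fold change of -1.93 ± 0.90 (SE, limma, unadjusted p = 0.063, adjusted p = 0.730) was the lowest of the 10 genes, and the means were 1063 ± 73.4 (SD, n = 3) and 421 ± 317 (SD, n = 4). Without GPC6 replicate 1 the log2 fold change was -1.03 and the unadjusted limma p was 0.011.

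Gpnmb, a transmembrane glycoprotein of lysosomes and phagosomes that is a target of the MITF family, was the most variable of the 10 genes in both groups. It had 2735, 11104 and 1402 normalized counts in the 3xCR tumors and 420.4, 271, 7066 and 11944 in the GPC6 tumors. High and low tumors occurred in each group, over a 7.92-fold range in 3xCR and 44.1-fold in GPC6. The means of 5080.1 ± 5259 (SD, n = 3) and 4925 ± 5651 (SD, n = 4) were nearly equal, while the log2 fold change was -0.99 ± 1.45 (SE, limma, unadjusted p = 0.515). Its direction rested on GPC6 replicates 1 and 2: the log2 fold change was -0.30 without the first and 1.40 without both. With edgeR, which compares mean counts, it was -0.07.

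The secreted genes Spp1 and Lgals3 ranked the 7 libraries in the same order. Spp1, which encodes osteopontin, a matrix protein that binds integrins and CD44, had 1684, 2898 and 1830.15 normalized counts in the 3xCR tumors and 100.5, 1587, 436 and 4038 in the GPC6 tumors. The GPC6 group held both the lowest and the highest library, a 40.2-fold range. The means were 2137 ± 663 (SD, n = 3) and 1540.4 ± 1783 (SD, n = 4), with a log2 fold change of -1.51 ± 1.11 (SE, limma, unadjusted p = 0.214) that was -0.56 without GPC6 replicate 1 and -0.49 with edgeR.

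Lgals3 encodes galectin-3, a lectin that binds damaged lysosomes and, once secreted, TREM2. It had 947, 1564 and 1553 normalized counts in the 3xCR tumors and 128, 516, 382 and 1601 in the GPC6 tumors. In 3 of the 4 GPC6 tumors it lay below all 3xCR tumors, and GPC6 replicate 4 was the highest library of all 7. The means were 1354 ± 353 (SD, n = 3) and 657 ± 649.6 (SD, n = 4), and the log2 fold change was -1.55 ± 0.74 (SE, limma, unadjusted p = 0.070). It was -0.95 without GPC6 replicate 1 and -1.06 with edgeR.

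**Figure D2:**
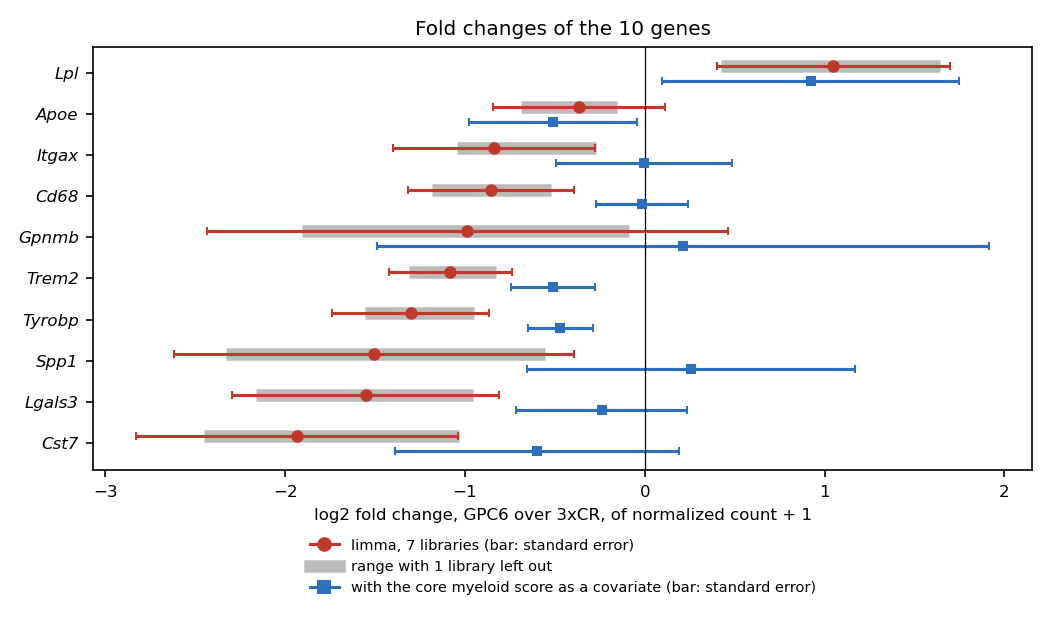
Log2 fold change (GPC6 over 3xCR) of each gene from limma on 7 libraries (red circles, bars give the standard error), its range when 1 library is left out (gray), and the value with the core myeloid score as a covariate (blue squares, bars give the standard error). With the covariate the median of the 10 genes is -0.13, and the lowest values are -0.60 for Cst7, -0.51 for Trem2, -0.51 for Apoe and -0.47 for Tyrobp.

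The level of general myeloid genes also differed between the libraries. The core myeloid list holds 15 genes that microglia and other macrophages express. Whether their level changed with the state of these cells was not tested. All 15 had a lower mean log2 level in GPC6 tumors, with a median log2 fold change of -0.83. In limma 4 of them had an unadjusted p under 0.05 (Aif1, Ly86, C1qa and C1qc), while 0 passed adjustment. Itgam had the highest log2 fold change, -0.15 ± 0.55 (SE), with means of 952 normalized counts in 3xCR and 1004 in GPC6 tumors. The summed level of the list was 49939 to 102415 normalized counts in the 3xCR tumors and 23087 to 54736 in the GPC6 tumors, and no gene of the list was at 0 in any library. The mean log2 level of the list was 10.7, 11.2 and 11.9 in the 3xCR tumors and 9.46, 10.6, 10.6 and 11.1 in the GPC6 tumors. The groups overlapped and differed by -0.82 (exact permutation test, p = 0.114). Without GPC6 replicate 1 the difference was -0.49 (exact permutation test, p = 0.200) and the median log2 fold change of the list -0.58, and without 3xCR replicate 4 that median was -0.55.

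Each of the 10 genes was therefore also read against that list, as its log2 level minus the mean log2 level of the 15 core myeloid genes in the same library. For Tyrobp this relative level was 0.20, 0.02 and 0.03 in the 3xCR tumors and -0.47, -0.41, -0.38 and -0.33 in the GPC6 tumors. The groups were separated, with a difference of -0.48 between the means of 0.08 ± 0.10 (SD, n = 3) and -0.40 ± 0.06 (SD, n = 4), and the exact permutation test gave p = 0.057, the smallest it can give. Among all 14782 genes tested, 23 had a level relative to the core myeloid genes with groups separated in this direction (0.156%). Tyrobp was the only one of the 10 genes to do so. The core level itself differed by -0.82, so the subtraction moves every gene up in GPC6 tumors and makes this share small in advance. No such share was taken among myeloid genes alone. Aif1, the core gene of lowest log2 fold change, had -1.31 before the subtraction, beside -1.30 for Tyrobp. The relative difference of Tyrobp lay between -0.51 and -0.42 when any 1 library was left out and was -0.44 without GPC6 replicates 1 and 2. Read against 12 homeostatic microglia genes in place of the core list, it was -0.63 with overlapping groups (exact permutation test, p = 0.343). There GPC6 replicate 4 stood at 3.58, above the 2.78 to 3.44 of the 3xCR tumors, and the other GPC6 tumors at 1.63 to 2.18. In that list, 1 gene was at 0 in at least 1 library.

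Trem2 had overlapping groups once read against the core myeloid genes, with a difference of -0.26 (exact permutation test, p = 0.400), as 3xCR replicate 2 stood at -0.38 and the other 6 libraries between -1.30 and -0.83. Itgax and Cd68 had differences of -0.02 and -0.03 (exact permutation tests, p = 0.971 and 0.914). The remaining differences were -1.11 for Cst7, -0.73 for Lgals3, -0.69 for Spp1, -0.17 for Gpnmb, 0.45 for Apoe and 1.87 for Lpl, all with overlapping groups and exact permutation p of 0.114 or more. Lpl was higher relative to the core list in each of GPC6 replicates 1, 3 and 4 than in any 3xCR tumor, and GPC6 replicate 2, at -3.26, lay between them, as these stood at -3.30, -2.65 and -5.76. In limma with the core myeloid score as a covariate, a single one of the genes described here, Tyrobp, had an unadjusted p under 0.05 (log2 fold change -0.47 ± 0.18 SE, unadjusted p = 0.035, adjusted p = 0.992), beside 3.01% of all genes. Trem2 had -0.51 ± 0.23 (SE, unadjusted p = 0.064) in that fit, and the signs of Gpnmb and Spp1 turned to 0.21 and 0.26.

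**Figure D3:**
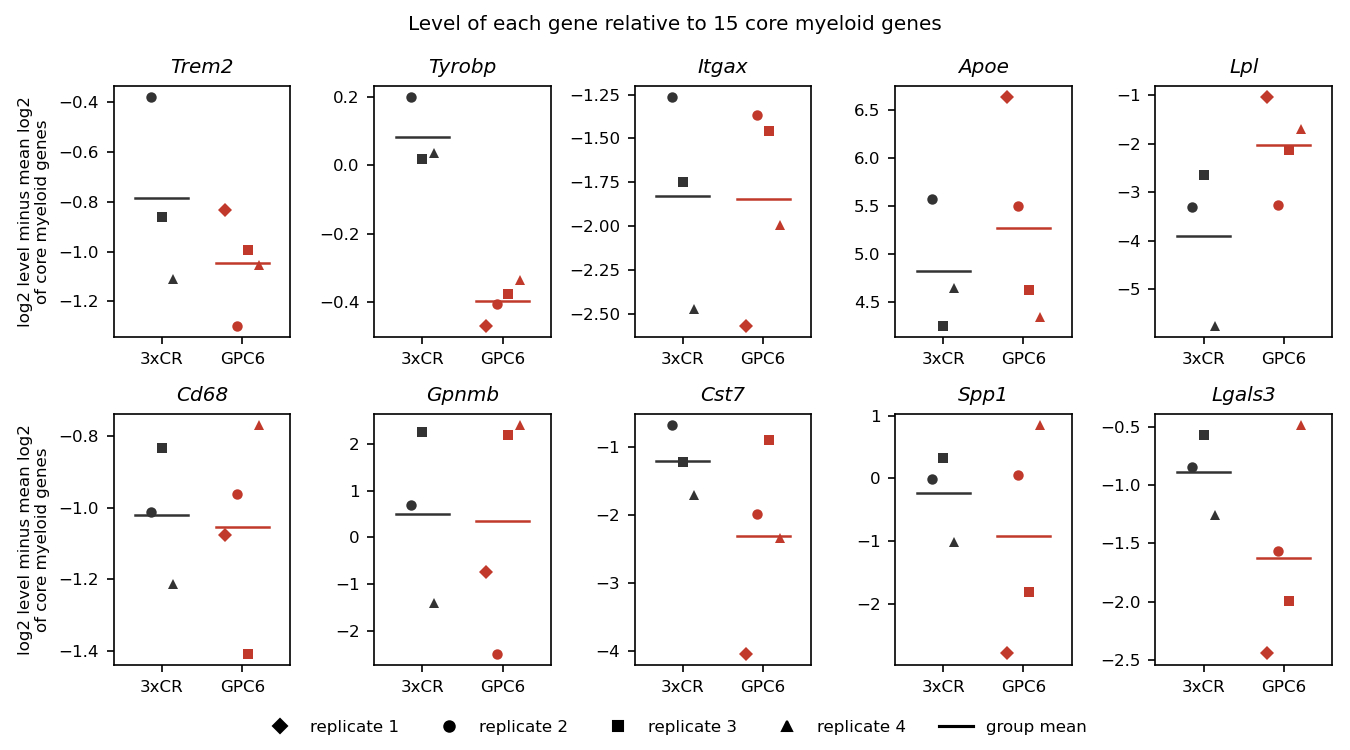
Log2 level of each gene minus the mean log2 level of 15 core myeloid genes in the same library, in 3xCR (black) and GPC6 (red) tumors, with the shape of a point giving the replicate number and a line the group mean. Tyrobp is separated, from 0.02 or above in 3xCR to -0.33 or below in GPC6, and the other 9 genes overlap.

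Genes that work with these 10 were read from lists written by hand, in which 0 genes passed the adjusted test. Of 15 genes of the TREM2 and DAP12 pathway, 14 had a lower mean log2 level in GPC6 tumors (median log2 fold change -0.60, and -0.29 without 3xCR replicate 4), and 0 of 15 had an unadjusted p under 0.05. Hcst, the DAP10 adaptor, had the lowest value at -1.42 ± 0.61 (SE), with few counts, and Clu, a lipoprotein that TREM2 binds and astrocytes make, had the highest at 0.77 ± 0.65 (SE). Syk, the kinase below TYROBP, had -0.60 ± 0.58 (SE), and Vav3, a guanine nucleotide exchange factor, was the only gene of the list with separated groups, at -0.42 ± 0.23 (SE). Both were picked after their values were seen.

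Of 25 further genes of the activated microglia program, 21 had a lower mean log2 level in GPC6 tumors, with a median of -0.71. At an unadjusted p under 0.05, limma called 2 of them, the tetraspanin Cd63 (-1.07 ± 0.43, SE) and the cathepsin Ctsz (-0.99 ± 0.39, SE). Ctsd, the lysosomal protease cathepsin D and the most abundant of the list, had separated groups with means of 37351 and 22117 normalized counts and a log2 fold change of -0.85 ± 0.43 (SE). Clec7a, the receptor dectin-1, had the lowest value of the list at -1.73 ± 0.87 (SE), and the chemokine Ccl6 the highest at 0.30 ± 0.86 (SE).

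The macrophage lipid genes were more mixed, as 11 of the 17 tested had a lower mean log2 level and 6 a higher one, with a median of -0.28 that was 0.04 without GPC6 replicate 1. Npc2, a cholesterol carrier of the lysosome, and Apoc1, an apolipoprotein encoded beside Apoe, had an unadjusted p under 0.05 (limma) at -0.92 ± 0.35 and -1.05 ± 0.39 (SE). The cholesterol exporters Abca1 and Abcg1 had 0.18 ± 0.40 and 0.14 ± 0.37 (SE), and the receptor of sterols that controls them, Nr1h3, had the lowest value at -1.12 ± 0.67 (SE). Gpihbp1, the endothelial anchor of lipoprotein lipase, was below the filter, with group means of 3.68 and 2.05 normalized counts and a value of 0 in at least 1 library.

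Of 16 lysosome genes, 13 had a lower mean log2 level in GPC6 tumors, with a median of -0.39 that was -0.24 without GPC6 replicate 1 and -0.24 without 3xCR replicate 4. A subunit of the lysosomal proton pump, Atp6v1a, was the single gene of the list with an unadjusted p under 0.05 (limma) and it was higher in GPC6 tumors (0.75 ± 0.31, SE). Psap, the precursor of the saposins and the most abundant of the list, had 0.09 ± 0.31 (SE), and the factors Mitf, Tfeb and Tfe3 had -0.56 ± 0.42, -0.53 ± 0.44 and -0.18 ± 0.18 (SE).

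Homeostatic microglia genes, which activated microglia lower, did not take the opposite direction: 10 of 12 had a lower mean log2 level in GPC6 tumors, with a median of -0.63. Limma gave an unadjusted p under 0.05 for genes that include Tmem119 (-1.08 ± 0.28, SE), Selplg (-0.87 ± 0.30, SE) and P2ry13 (-0.58 ± 0.22, SE), and these had separated groups. Their summed level was 10145 to 13107 normalized counts in the 3xCR tumors and 5989 to 9000.2 in the GPC6 tumors. Unlike the 10 genes, whose score was highest in GPC6 replicate 4 within that group at 0.75, the homeostatic score was lowest in that library, at -0.73.

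Markers of other cells also differed between the libraries, and their part in the results above was not tested. All 11 tested markers of monocytes and border macrophages had a lower mean log2 level in GPC6 tumors (median -0.61, and -0.30 without GPC6 replicate 1, but -0.03 with edgeR and -0.01 with DESeq2, which compare mean counts), with a summed level of 527 to 5595 normalized counts in 3xCR and 306 to 1649 in GPC6, and Lyve1 was at 0 in at least 1 library. All 7 T cell markers tested were lower in mean log2 level (median -1.31, sum 457 to 1838 in 3xCR and 334 to 480 in GPC6), with a median of -0.58 without 3xCR replicate 4 and of -0.12 with library weights, and Lck had an unadjusted p under 0.05 in limma. Of 7 dendritic cell markers tested, 5 were lower (median -0.97, and -0.60 without 3xCR replicate 4, sum 109 to 559 and 123 to 179), with Clec9a and Cd209a at 0 in at least 1 library. Neutrophil markers were scarce, with 3 of 6 above the filter (sum 441 to 559 and 218 to 408). Mpo and Retnlg were at 0 in at least 1 library. Csf3r, the most abundant of the list, had means of 463 and 295 normalized counts and separated groups. Its log2 fold change was -0.68 ± 0.26 (SE, limma, unadjusted p = 0.030). The cell source of Csf3r in these libraries was not tested. The list median was 0.04 with 2 of 3 higher, and S100a9 had the highest value at 0.47 ± 0.90 (SE).

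Neuron markers went the other way, with 10 of 10 higher in mean log2 level in GPC6 tumors (median 1.66, and 1.01 without GPC6 replicate 1, sum 4145 to 6662 in 3xCR and 3645 to 55229 in GPC6). Astrocyte markers had a median of 0.11 with 7 of 10 higher, and of -0.21 without GPC6 replicate 1 (sum 14390 to 60228 and 23312 to 64922). Astrocytes can also make Apoe, and the cell source of Apoe in these libraries was not tested. Oligodendrocyte precursor markers had a median of 0.03 with 4 of 7 higher, and of 0.40 without GPC6 replicate 1 (sum 17127 to 57605 and 15708 to 81264). Oligodendrocyte markers had a median of -0.67 with 7 of 8 lower (sum 66557 to 83690 and 15785 to 113770), which was -1.15 without GPC6 replicate 1, 0.05 without GPC6 replicate 4 and -0.08 with edgeR. Endothelial markers had a median of 0.38 with 7 of 9 higher, and of -0.13 without 3xCR replicate 2 (sum 1184 to 3279 and 2127 to 2855). Choroid plexus markers had a median of -1.06 with 7 of 7 lower in mean log2 level (sum 218 to 3765 and 66.9 to 12630), and of 0.05 with DESeq2 and -1.89 without GPC6 replicate 1. All 10 proliferation genes had a lower mean log2 level (median -0.60, sum 5623 to 12855 and 726 to 15134), a direction that turned without GPC6 replicate 1, to a median of 0.30. Of 11 tested mesenchymal glioma genes, 10 were lower (median -1.05, sum 16212 to 43127 and 6271 to 22279), with a median of -0.55 without GPC6 replicate 1 and of -0.46 without 3xCR replicate 4.

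**Figure D4:**
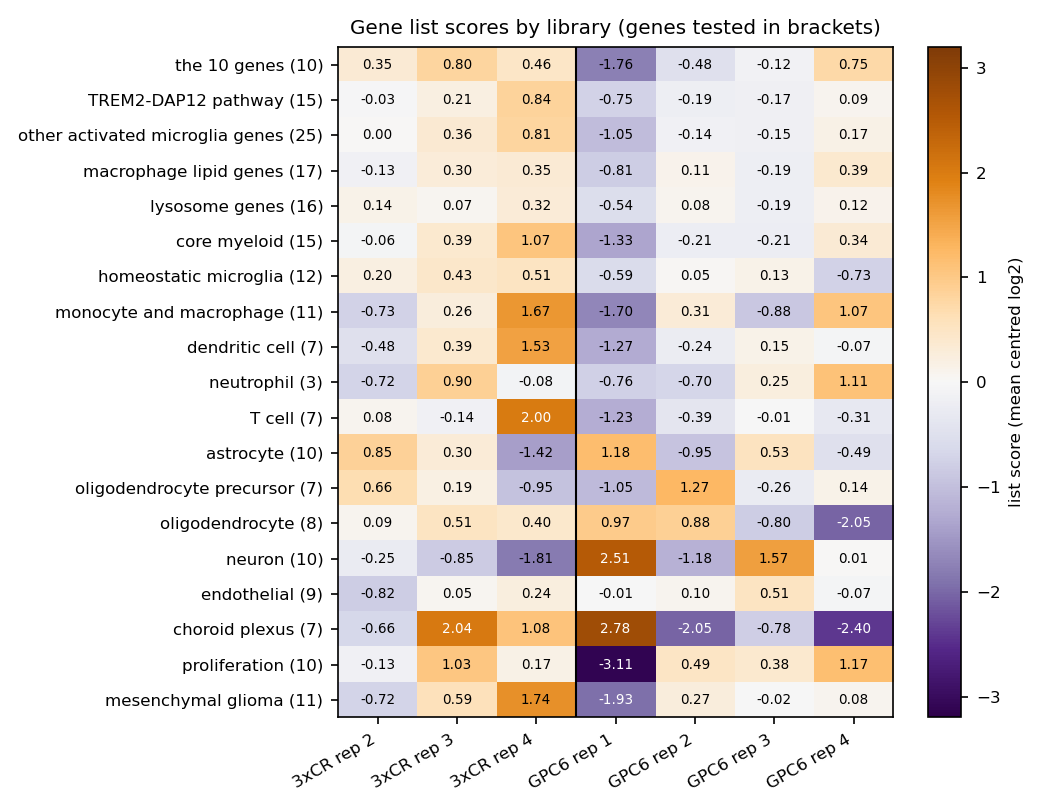
Score of each gene list (rows, number of genes tested in brackets) in each library (columns, 3xCR left of the line and GPC6 right of it), as the mean of its genes' log2 values after centering each gene over the 7 libraries, with orange above and purple below the mean. The 10 genes score from 0.35 to 0.80 in 3xCR tumors and from -1.76 to 0.75 in GPC6 tumors, where replicate 4 lies within the 3xCR range.

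Across the 7 libraries the 10 genes split by how they varied together, given here as a description over tumors that also differ in depth and tissue content. The correlations of 7 of them (Trem2, Tyrobp, Cd68, Lgals3, Spp1, Itgax and Cst7, a set seen in the data) ranged from a Pearson r of 0.74 to 0.98 over their 21 pairs. Trem2 and Tyrobp had r = 0.98 and Spearman rho = 0.96, and r = 0.95 without GPC6 replicate 1. Cd68 and Lgals3 had r = 0.98 and rho = 0.89, and 0.95 without that library. Spp1 and Lgals3 had r = 0.95 and rho = 1, and 0.85 without it. The range over the 21 pairs widened to -0.20 to 0.95 without GPC6 replicate 1, with Cst7 and Spp1 at the low end, after 0.74 with it.

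Apoe, Lpl and Gpnmb stood outside. Apoe and Lpl ran against each other (r = -0.81, rho = -0.75, and r = -0.88 without GPC6 replicate 1), as did Apoe and Gpnmb (r = -0.69, rho = -0.54, and -0.69 without it), while Lpl and Gpnmb had r = 0.53 (rho = 0.82, and 0.73 without it). Leaving out the 2 libraries farthest from the median of the first gene gave r = 0.97 for Trem2 and Tyrobp, 0.96 for Cd68 and Lgals3, 0.68 for Spp1 and Lgals3, -0.92 for Apoe and Lpl and -0.50 for Apoe and Gpnmb. With the core myeloid score, r was 0.97 for Tyrobp, 0.96 for Cd68, 0.92 for Trem2 and 0.92 for Lgals3, and 0.07 for Apoe, 0.46 for Gpnmb and -0.37 for Lpl. Cst7, Itgax and Spp1 had 0.83, 0.82 and 0.82 with that score and 0.42, 0.38 and 0.47 without GPC6 replicate 1.

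**Figure D5:**
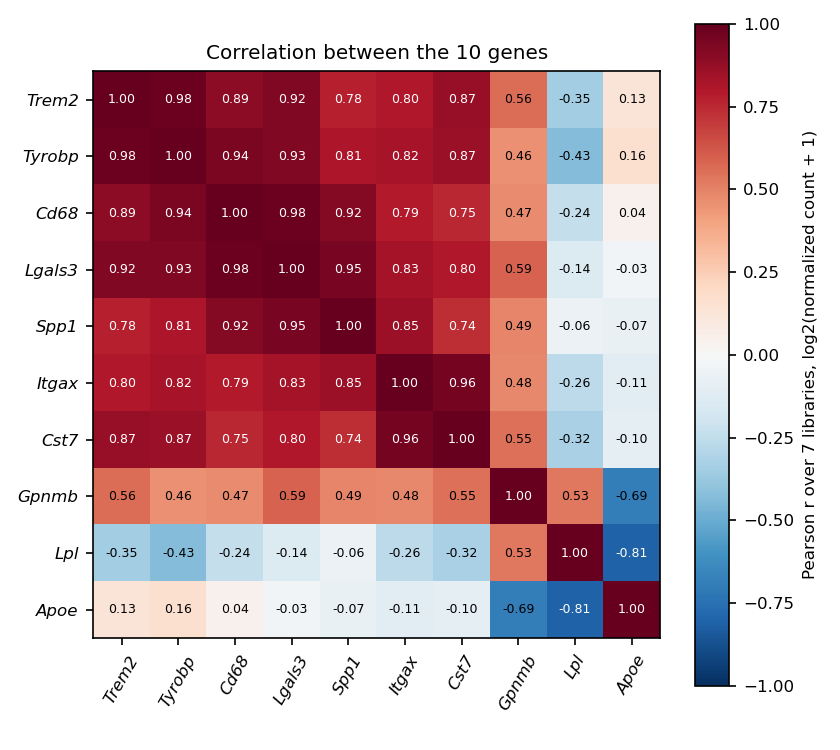
Pearson r between the log2(normalized count + 1) values of each pair of the 10 genes over 7 libraries, red for positive and blue for negative. Trem2, Tyrobp, Cd68, Lgals3, Spp1, Itgax and Cst7 form a block of 0.74 or above, and Apoe and Lpl have -0.81.

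Among 12622 other genes with a mean of at least 50 normalized counts, the one most like Tyrobp over the 7 libraries was C1qc, a subunit of complement C1q that microglia make, at r = 0.99 and rho = 1. Cst7 was most like Irf9, a subunit of the interferon-activated factor ISGF3, at r = 0.99. For Cd68 and Lgals3 they were the ribosomal protein genes Rpsa (r = 1.00) and Rps2 (r = 1.00), and for Trem2, Rab29, a small GTPase (r = 0.98). Itgax was most like Afg3l1 (r = 0.99, rho = 0.75) and Spp1 like Tmem128 (r = 0.99, rho = 0.96). Apoe was most like Parl, a protease of mitochondria (r = 0.98, rho = 0.93). Lpl was most like Cecr2 (r = 0.99, rho = 1) and Gpnmb like En2 (r = 0.95, rho = 0.96). Each was picked as the highest of 12622 values over 7 libraries, so a high r was to be expected, and these matches are a description only.

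Between genes, levels were compared per kilobase of merged exon length (GENCODE M21 on GRCm38), as the mean normalized count per kilobase over the 7 libraries. Apoe (chr7:19696109-19699188, minus strand) was far above the rest at 29384, and Tyrobp (chr7:30413760-30417585, plus strand) followed at 2726. Each was above the next gene in 7 of 7 libraries. Spp1 (chr5:104435118-104441050, plus strand) at 1089.9, Cd68 (chr11:69664213-69666153, minus strand) at 768, Gpnmb (chr6:49036546-49070929, plus strand) at 766, Cst7 (chr2:150570415-150578944, plus strand) at 706 and Lgals3 (chr14:47367751-47386160, plus strand) at 514 did not keep an order, since each was above the next in only 4 or 5 of 7 libraries.

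Trem2 (chr17:48346401-48354147, plus strand) had 207 normalized counts per kilobase, below Lgals3 in 6 of 7 libraries. Itgax (chr7:128129547-128150657, plus strand) had 116, below Trem2 in 7 of 7. Lpl (chr8:68880491-68907448, plus strand) was the lowest at 29.3, below Itgax in 6 of 7. The place of Trem2 depends on the transcript, as its merged exons span 4946 bases and its principal transcript 1088. Per kilobase of principal transcript it had 941 and came after Apoe (44618), Tyrobp (3224), Gpnmb (1349) and Spp1 (1192), and it exceeded Spp1 in 4 of 7 libraries. Spp1 overlaps the transcript Gm42793 on the same strand, and how reads shared by genes were counted is not given in the sources used here.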

How the data were processed

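Stranded mRNA libraries were made from endpoint tumor tissue of 3 3xCR and 4 GPC6 mice. The authors checked reads with FastQC, aligned them to mm10 with STAR 2.5.0a, counted them on genes with Rsamtools and GenomicFeatures and normalized with DESeq2 1.20.0. The deposited signal is the linear count per gene over the library's size factor, without length correction. Whether counting used strand is not given in the sources used here. All values (100%) were whole multiples of 1 read within 0.01 read, which gave back the counts. Of 19282 entries, 25 whose names had become dates (0.254% to 0.361% of reads) were left out.

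Levels were tested with limma 3.58.1 (R 4.3.3, moderated variance with a trend) on log2(normalized count + 1) for 14782 genes with a mean of at least 10, two-sided, with Benjamini-Hochberg adjustment over all of them. Fold changes are on this scale, where the pseudocount of 1 understates the change of low genes. Group tests of single values were two-sided exact permutation tests. P-values measure the spread between these tumors, 1 library each. Alternatives were edgeR 4.0.16, DESeq2 1.42.0 and limma voom on the recovered counts, other pseudocounts, filters and scalings, a variance without trend, library weights, a replicate block, the core myeloid score as a covariate, another reference list and leaving out libraries. Leaving out GPC6 replicates 1 and 2 together, the core myeloid level without GPC6 replicate 1, and the list medians under each alternative, were chosen after seeing the data. Scripts were tested on simulated data.

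The 10 genes and the lists were chosen with earlier results of these data known. From each list the most abundant gene and the genes at either end of the log2 fold changes could be named, and for each of the 10 genes the most correlated gene. Genes named for an unadjusted p under 0.05 or separated groups, and Syk, Abca1, Abcg1, Mitf, Tfeb and Tfe3, were chosen after their values were seen. The values of 1 gene of the homeostatic list are not reported here.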

Additional observations from a re-analysis of the deposited data

Results flagged for a closer look

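Of 39 quantities looked at in the 4 GPC6 tumors (levels of the 10 genes, their levels relative to the core myeloid genes, and list scores), 2 had a library far from the other 3 by Dixon's criterion at 95%, and chance flags about 1 in 20, or 1.95 of 39. Itgax had 117 normalized counts in GPC6 replicate 1, where the other GPC6 tumors had 556 to 592 and the 3xCR tumors 667 to 706. The mesenchymal glioma list score was -1.93 in GPC6 replicate 1 and -0.02 to 0.27 in the other GPC6 tumors. Both concern the library with the highest neuron score and the lowest proliferation score.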

How the results depend on the processing

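The count of 0 genes at an adjusted p under 0.05 was 4 with DESeq2 and 1962 with library weights, a fit in which limma also gave 5105 genes at an unadjusted p under 0.05 and called 5 of the 10 genes, Trem2, Tyrobp, Cd68 and Lgals3 (adjusted p = 0.029) and Spp1 (adjusted p = 0.031), with the adjusted p of the 10 genes at 0.342 or more in each other fit. DESeq2 gave 1853 genes unadjusted, and the core myeloid covariate 445 genes, 1 of the 10 genes and a median of -0.13. With that covariate Gpnmb (0.21) and Spp1 (0.26) changed sign, and without GPC6 replicates 1 and 2 Gpnmb did (1.40), as did the levels relative to the core myeloid genes of Itgax (0.10), Apoe (-0.33) and Gpnmb (1.80). Leaving out 1 library gave 119 (3xCR replicate 4) to 1401 (GPC6 replicate 2) genes at an unadjusted p under 0.05 in limma. Of the 10 genes, 0 (without 3xCR replicate 4) to 5 (without GPC6 replicate 4) were called. The fit that called 5 had a count over all genes between 119 and 1401. Medians of the 10 genes lay from -1.43 to -0.54. Relative levels lay from -0.34 to 0.26 for Itgax, -0.13 to 0.083 for Cd68 and -1.12 to 0.78 for Gpnmb. The causes of these moves were not tested. In all, 202 of the alternative fold changes of the 10 genes kept direction and side of the threshold, 5 passed it and 3 changed sign. Of the medians of the other lists, 14 moved by more than the spread between libraries and 363 did not.

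Replicate numbers 2, 3 and 4 occur in both groups. Deviations from the group mean had correlations of -0.19, 0.12 and 0.30 between same-numbered libraries. So few values cannot show whether the numbers pair the tumors. With the number as a replicate block, limma gave 0 genes adjusted and 678 unadjusted, 3 of the 10 genes among them, with a median of -0.54, as GPC6 replicate 1 has no partner in it. Not every library correlated best with its own number. With 3 against 4 libraries the exact permutation tests cannot go below p = 0.057. The median of the dendritic cell list could not be computed with a filter at a mean of 50.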
